A study of Zea mays with 3 samples.

Results

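Among the 36197 maize genes with a GRMZM identifier on a NimbleGen expression array, 16 carried 10 or more transcript isoforms, and their 176 isoforms were followed in roots of the Urea+NBPT treatment. Isoforms were counted by removing the isoform number (T01, T02 and so on) from each transcript name and counting the different names that were left per gene, so no measured value took part in the choice. These genes were 0.0442% of the genes and their isoforms 0.295% of the 59756 transcripts of the array, which are predictions from the B73 reference genome. The highest number of any gene was 12, reached by 6 genes, while 4 genes had 11 and 6 had 10.

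The roots came from maize seedlings of the cultivar PR33T56, called a hybrid in the sample labels and an inbred line in the methods, that were 5 days old when transferred to nutrient solution with 0.5 mM urea and 0.897 μM NBPT. NBPT, N-(n-butyl) thiophosphoric triamide, inhibits urease, the enzyme that splits urea. After 8 h the roots of 6 plants were pooled for each of 3 biological replicates from separate experiments, and each replicate was hybridized to 1 array on the same slide. All 3 arrays belong to 1 treatment, so no comparison between treatments was made and nothing here is a response to NBPT or to urea.

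An isoform is one of several mature RNAs made from the same gene, through alternative splicing, another start site or another end of the transcript. In plants, alternative splicing often keeps an intron in the RNA, and many such RNAs code for shortened proteins or are degraded. Isoforms of a gene usually share most of their exons. An array probe placed in a shared exon therefore binds several isoforms, and only a probe on a stretch that a single isoform holds reports on that isoform. Sequences of the probes were not analysed here, so which probes of these genes are shared was not determined.

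Each isoform had 2 or 3 probes. Its level is the mean log2 intensity of its probes, and it was called detected when each of the 3 arrays exceeded a threshold, set for every array so that 95% of its 1663 probes of random sequence fell under it. The threshold stood at 8.15 in replicate 1, at 8.22 in replicate 2 and at 8.16 in replicate 3 (log2 intensity). Levels of different isoforms are not comparable as amounts, because probes bind with different strength, and the number of arrays limits the precision. Known genes of root, leaf and pollen were looked up to describe the tissue. Root genes in the reference symbols were found for 4 of 8 names, rtcs, rth3, ys1 and nas2, and each had a detected transcript. Of the leaf genes, 6 of 9 names were found, and 4 had a detected transcript, ppdk1, pep1, me3 and psb29. Levels of ppdk1 were 14.57, 13.41 and 13.56 for GRMZM2G306345_T01 in replicates 1, 2 and 3. All transcripts of the Rubisco small subunit (ssu1, rbcs) were below threshold. Both pollen profilins that were found, pro1 and pro2, were detected. Names of every list thus had detected transcripts, so detection of these genes does not tell root from other tissues. The part of other tissues in the signals was not tested.

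Reference symbols were found for 13 of the 16 genes, 12 of them with a single reference gene, and most of these symbols carry no description. A product is named in the sources used here for 3 of them. GRMZM2G067985 is listed as Actin-7, and actin forms the microfilaments of the cytoskeleton. GRMZM2G376416 is described by the Arabidopsis beta-glucosidase 11, of a group of enzymes that release glucose from glucose conjugates. GRMZM2G414387 is described by an oxygenase of the superfamily that depends on 2-oxoglutarate and Fe(II), and by a rice flavonol synthase-like protein. The other 13 genes are given by their identifiers alone.

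Of the 176 isoforms, 139 were detected in Urea+NBPT roots, 79% of them, against 62.1% of all transcripts of the array. A limma test of the excess over the threshold, fitted on all transcripts, called 138 isoforms of these genes at an adjusted p under 0.05 (one-sided, Benjamini-Hochberg), 78.4% against 61% of all transcripts. Both calls shared 137 isoforms. Taken singly, the arrays had 147, 143 and 149 isoforms above the threshold in replicates 1, 2 and 3. Of the 37 isoforms not detected, 23 were above the threshold in no array, 6 in 1 array and 8 in 2 arrays. No test of this list against other genes was made, and isoforms of a gene are not independent measurements.

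The share of detected transcripts was 60.1% for genes with 1 isoform, 63.7% for those with 2 to 4, and 67.3% for those with 5 to 9. Next to the limit of 10, the 22 genes with 9 isoforms had 69.7% of their isoforms detected, and the genes with 10 had 83.3%. The genes with 11 isoforms had 63.6% and those with 12 had 84.7%. The share of the 4 genes with 11 isoforms was lowered by GRMZM2G147534 with 1 of 11 detected, while the others had 8, 9 and 10 of 11. The median level was 10.47 in the group and 9.23 over all transcripts. The probes differed in number too. In the group 15.9% of the isoforms had 3 probes, and in all transcripts 32.6%, and transcripts with 2 probes were detected more often, with 65.7% against 54.6% over the whole array. Within the group the shares were 81.1% of 148 isoforms with 2 probes and 67.9% of 28 with 3. The part of the number of probes in the difference from other genes was not tested.

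**Figure D1:**
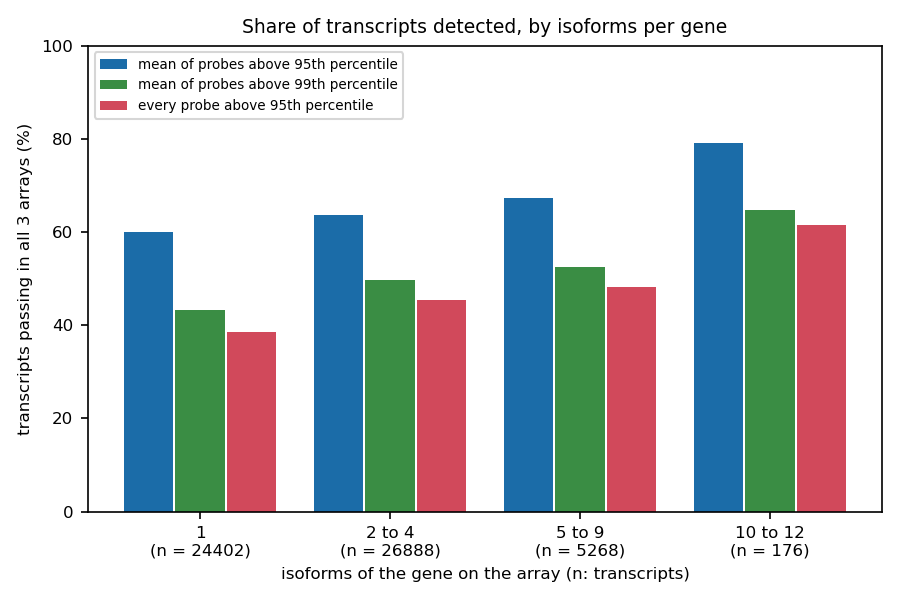
Percentage of transcripts passing in all 3 arrays (y axis) by the number of isoforms of their gene (x axis), for 3 detection rules shown as bars from 0. Under the first rule the bars stand at 60.1%, 63.7%, 67.3% and 79%, and when every probe must pass, at 38.6%, 45.4%, 48.2% and 61.4%.

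In 3 genes every isoform was detected, in 13 some were and some were not, and in 0 genes were all isoforms below threshold. For comparison, every isoform was detected in 21% of the 921 genes with 5 to 9 isoforms, and none in 5.86%, where fewer isoforms make either result easier to reach. With the 99th percentile of the random probes as threshold, 114 isoforms of the group were detected, against 46.4% of all transcripts, and when every probe of the isoform had to pass, 108 were, against 42.1%. The step from the mean of the probes to every probe removed 31 detected isoforms. These isoforms had at least 1 probe that did not rise above the threshold, the 95th percentile of the random probes, in at least 1 array.

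**Figure D2:**
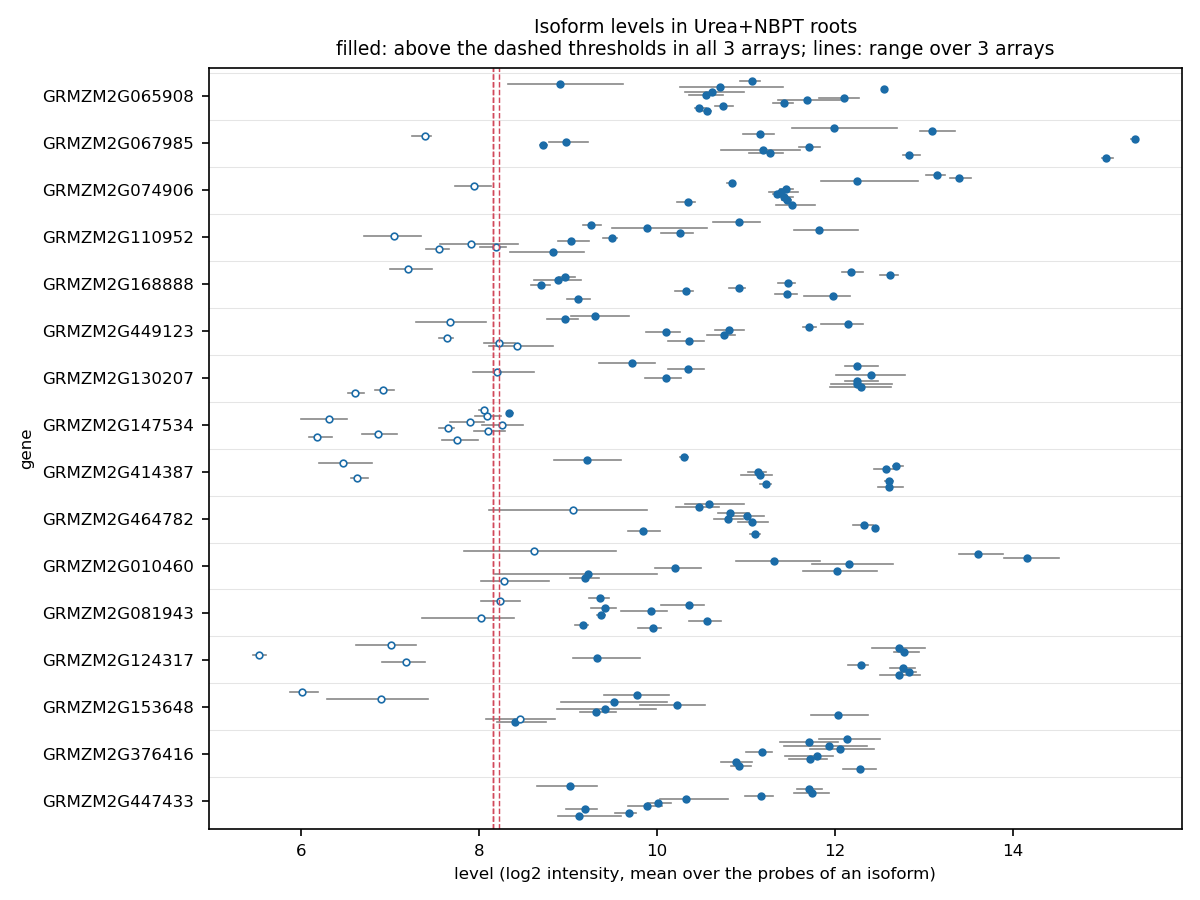
Level of each of the 176 isoforms (x axis, log2 intensity; circle: mean of 3 arrays, line: range over the arrays) for the 16 genes (y axis). Filled circles lie above the dashed thresholds (8.15, 8.22 and 8.16) in all 3 arrays, and 139 are filled, with GRMZM2G147534 as the gene with 1 filled circle among 11.

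The genes with every isoform detected were GRMZM2G065908, the beta-glucosidase GRMZM2G376416 and GRMZM2G447433. In the beta-glucosidase all 10 isoforms lay well above the control probes, also when every probe had to pass and with the 99th percentile as threshold. Its lowest isoform, GRMZM2G376416_T03, had 10.71, 11.06 and 10.90 in replicates 1, 2 and 3, and its highest, GRMZM2G376416_T01, had 12.09, 12.46 and 12.29. The isoform with the widest spread was GRMZM2G376416_T09 at 11.429, 12.359 and 12.005, with a mean of 11.93 ± 0.47 (SD, n = 3). No isoform of this gene was therefore close to the threshold, and replicate 1 was the lowest array in 9 of the 10.

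GRMZM2G065908 had 12 isoforms with levels between 8.90 and 12.55, all detected and all called by limma. GRMZM2G065908_T09 had the smallest SD of all 176 isoforms, with 12.55, 12.56 and 12.55 in replicates 1, 2 and 3. The lowest, GRMZM2G065908_T11, had 8.77, 9.61 and 8.33, and 1 of its probes had a mean of 6.61 while the other had 11.20. It was thus detected through 1 of its probes, and it also had the largest SD of the gene at 0.65 (log2, n = 3).

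GRMZM2G447433 had 10 isoforms, all detected by the mean of their probes, but in 3 alone did every probe pass. GRMZM2G447433_T02 had levels of 9.53, 9.74 and 9.77 in replicates 1, 2 and 3, from 1 probe at 13.36 and another at 6.00. Isoforms T03, T04 and T05 of this gene showed the same division, with their bright probes at 12.46, 12.43 and 12.53 and their dim probes at 5.91, 7.34 and 7.49. In each of them the bright probe started nearer to the beginning of the transcript than the dim one. The highest isoform, GRMZM2G447433_T08, had 11.75, 11.54 and 11.93 with both probes above the threshold, and the lowest, GRMZM2G447433_T10, had 8.65, 9.33 and 9.08.

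At the other end stood GRMZM2G147534, with 1 of 11 isoforms detected and 7 above the threshold in no array. The detected one, GRMZM2G147534_T10, had 8.38, 8.33 and 8.31 in replicates 1, 2 and 3, which is 0.16 above the thresholds on average, and limma did not call it (adjusted p = 0.14). GRMZM2G147534_T06 passed in 2 arrays with 8.50, 8.03 and 8.23. The lowest isoform was GRMZM2G147534_T02 at 6.09, 6.09 and 6.34. Levels of this gene had a median of 7.90, and its isoforms held both bright and dim probes. GRMZM2G147534_T10 had probes at 10.46 and 6.22, and GRMZM2G147534_T06 at 10.15 and 6.35, while both probes of GRMZM2G147534_T02 lay near 6, at 6.21 and 6.14. When replicate 2, the lowest array in 8 of the 11 isoforms, was left out, 2 isoforms were detected.

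Actin-7, GRMZM2G067985, had both the highest isoform of the group and some of the widest gaps between probes. GRMZM2G067985_T10 had 15.37, 15.33 and 15.40 in replicates 1, 2 and 3, and GRMZM2G067985_T01 had 15.025, 15.124 and 14.997. These isoforms had both probes above 15 on the mean of the arrays. Of its 12 isoforms 11 were detected, but in 5 alone did every probe pass. GRMZM2G067985_T13 had levels of 11.31, 10.96 and 11.20 from probes at 15.51 and 6.80, the widest gap of the group at 8.71. Isoforms T04, T05 and T06 had a bright probe at 15.53, 15.07 and 15.62 and a dim probe at 7.00, 7.30 and 7.79. In these the dim probe was the one nearer to the beginning of the transcript, whereas in T13 and T15 the bright probe was. The isoform not detected was GRMZM2G067985_T11 with 7.46, 7.25 and 7.46. The widest spread over arrays belonged to GRMZM2G067985_T15 with 11.74, 11.51 and 12.70, in which replicate 3 exceeded the average of the other arrays by 1.07, and its dim probe carried that difference, with 7.93, 7.53 and 9.90.

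Of the 11 isoforms of the oxygenase gene GRMZM2G414387, 9 were detected and called by limma, from GRMZM2G414387_T11 at 8.84, 9.59 and 9.21 up to GRMZM2G414387_T09 at 12.65, 12.65 and 12.76. GRMZM2G414387_T11 was not detected with the 99th percentile as threshold, and the other 8 were. The remaining ones, GRMZM2G414387_T05 and GRMZM2G414387_T10, lay below the threshold in every array, with 6.56, 6.58 and 6.75 for the first and 6.20, 6.80 and 6.39 for the second. Both had their probe starts close together, 87 and 31 bases apart, whereas in the detected isoforms of this gene the starts were at least 287 bases apart. In the 9 detected isoforms every probe passed, too.

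GRMZM2G124317 had 7 of 10 isoforms detected, of which T01, T02, T03, T08 and T09 lay together with means of 12.72, 12.83, 12.77, 12.77 and 12.72. GRMZM2G124317_T02 had 12.91, 12.74 and 12.83 in replicates 1, 2 and 3. The lowest isoform of the whole group was GRMZM2G124317_T07 with 5.60, 5.52 and 5.46, whose 3 probes started within 8 bases of each other. GRMZM2G124317_T05 and GRMZM2G124317_T10 were also below the threshold in every array, with means of 7.17 and 7.01, and had 3 probes each. GRMZM2G124317_T06, with 3 probes as well, was detected at 9.06, 9.80 and 9.12, and its SD of 0.41 was the largest of the gene. It lay between the bright isoforms and those below the threshold, and was not detected with the 99th percentile.

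In GRMZM2G130207, with 8 of 11 isoforms detected, isoforms T03, T04, T05, T07 and T10 had means of 12.29, 12.25, 12.24, 12.40 and 12.25, closer to each other than the arrays of GRMZM2G130207_T07 were among themselves, at 12.79, 12.01 and 12.40. The isoforms below the threshold in every array were GRMZM2G130207_T01 at 6.59, 6.52 and 6.71 and GRMZM2G130207_T02 at 6.83, 6.88 and 7.04, with probe starts 6 and 42 bases apart. GRMZM2G130207_T08 passed in 1 array, with 8.61, 8.04 and 7.93. A short distance between probes did not always go with a low level, since GRMZM2G130207_T11, with starts 26 bases apart, was detected at 9.82, 9.35 and 9.98.

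Likewise GRMZM2G074906 had 11 of 12 isoforms detected, and isoforms T01 and T03 to T07 had means between 11.35 and 11.51. Every probe of these 11 isoforms passed. The highest was GRMZM2G074906_T11 with 13.36, 13.53 and 13.30 in replicates 1, 2 and 3. The one not detected was GRMZM2G074906_T08 with 7.73, 8.14 and 7.94, and of its 3 probes 1 lay at 10.47 and the dimmest at 6.37. GRMZM2G074906_T10 had the widest spread with 11.94, 12.94 and 11.84, so that replicate 2 exceeded the average of the other arrays by 1.04.

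GRMZM2G168888 had 11 of 12 isoforms detected, from GRMZM2G168888_T07 at 8.80, 8.58 and 8.71 to GRMZM2G168888_T11 at 12.63, 12.51 and 12.71. GRMZM2G168888_T13 was below the threshold in every array with 7.13, 7.48 and 7.00. The replicates of this gene lay close together, with a median SD of 0.12 over its isoforms and a largest SD of 0.28, for GRMZM2G168888_T02 at 12.12, 11.65 and 12.17. With the 99th percentile as threshold 7 of its isoforms were detected.

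In GRMZM2G464782 10 of 11 isoforms were detected, and limma called all 11. The isoform on which the calls differed, GRMZM2G464782_T10, had 9.15, 9.89 and 8.12 in replicates 1, 2 and 3, which gave an adjusted p of 0.02 by limma although replicate 3 was just below its threshold. It had an SD of 0.89. The others lay between GRMZM2G464782_T02 at 10.03, 9.83 and 9.67 and GRMZM2G464782_T03 at 12.44, 12.44 and 12.46.

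GRMZM2G110952 had the most probes, 32 for its 12 isoforms, and 8 isoforms were detected. With the 99th percentile as threshold 5 were, and 5 when every probe had to pass. GRMZM2G110952_T09 was the highest with 11.53, 12.26 and 11.66 in replicates 1, 2 and 3, and its 3 probes differed by 0.35. GRMZM2G110952_T07 was the lowest with 7.09, 7.35 and 6.70. GRMZM2G110952_T11 was detected at 9.23, 9.37 and 9.17, yet of its 3 probes 1 had 14.20 and the dimmest 5.84. GRMZM2G110952_T10 had the largest SD of the gene, with 9.59, 10.57 and 9.49. The reference table pairs this identifier with 2 genes, 1 of them a transcribed pseudogene, and which of its isoforms belong to which was not determined.

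GRMZM2G449123 had 8 of 12 isoforms detected, 2 above the threshold in some arrays and 2 in none. Its highest isoform was GRMZM2G449123_T09 with 11.84, 12.31 and 12.29, and its lowest GRMZM2G449123_T04 with 7.55, 7.71 and 7.67. GRMZM2G449123_T06 had 10.26, 9.88 and 10.15 from probes at 14.07 and 6.12. The bright probes of GRMZM2G449123_T06 and GRMZM2G449123_T08, which had 14.07 and 13.86, started at positions 2714 and 2715 of their transcripts. GRMZM2G449123_T11 was the most variable isoform, with 7.29, 8.08 and 7.65, and lay below the threshold throughout.

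GRMZM2G081943 had 8 of 10 isoforms detected, and the remaining ones passed in 2 arrays each. GRMZM2G081943_T04 had 8.39, 7.35 and 8.32 in replicates 1, 2 and 3, and GRMZM2G081943_T09 had 8.21, 8.02 and 8.46. Both failed in replicate 2, which was the lowest array in all 10 isoforms of the gene. Its highest isoform was GRMZM2G081943_T03 with 10.72, 10.36 and 10.61.

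GRMZM2G010460 had the largest differences between replicates of the group, with a median SD of 0.43 over its isoforms against 0.189 in the group and 0.196 over all transcripts. Of its 10 isoforms 8 were detected. GRMZM2G010460_T08 was the highest with 13.90, 14.05 and 14.52 in replicates 1, 2 and 3, and GRMZM2G010460_T01 the lowest with 8.04, 8.02 and 8.79, passing in 1 array. Replicate 3 was the highest array in 8 isoforms and replicate 1 the lowest in 8. In GRMZM2G010460_T03 replicate 2 was the highest array instead and replicate 1 again the lowest, with 8.181, 9.998 and 9.489. Its SD of 0.94 was the largest of all 176 isoforms. GRMZM2G010460_T10 had the same order of arrays with 7.83, 9.53 and 8.49.

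In GRMZM2G153648, the gene with the next largest spread (median SD 0.37), replicate 1 was the highest array in 9 of 10 isoforms and replicate 2 the lowest in 8. Of its isoforms 7 were detected, 3 with the 99th percentile as threshold and 3 when every probe had to pass. GRMZM2G153648_T03 had 12.37, 11.73 and 11.99, GRMZM2G153648_T07 had 10.11, 8.92 and 9.52, and GRMZM2G153648_T10 had 5.98, 6.18 and 5.88. The last was the lowest isoform of the gene and the only one in which replicate 2 was highest. GRMZM2G153648_T01 was detected at 8.75, 8.26 and 8.20 but was not called by limma (adjusted p = 0.14). Its replicates spanned 0.55, and its mean excess over the thresholds was 0.23.

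The brightest and the dimmest probe of an isoform differed by more than 2 on the log2 scale in 77 of the 176 isoforms, by more than 4 in 29, and by less than 1 in 62. The median difference was 1.65 in the group and 1.49 over all transcripts. In 11 isoforms of 5 genes the brightest probe lay above 12 while the dimmest lay below 8. A probe that bright nearly always lifts the mean over the threshold, so that all 11 were called detected follows from how they were picked. Such a gap is a difference between signals of probes, and whether amounts of RNA differ with it was not tested.

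Where all probes of an isoform started within 100 bases of each other, 11 of 24 isoforms were detected (45.8%), and where they were spread further, 128 of 152 (84.2%). Over the whole array the shares were 43.6% and 65.4%. The distance of 100 bases was chosen after the values had been seen, and no test was made. Of the 37 isoforms not detected, 13 had their probes within 100 bases and 24 over a longer stretch. The median difference between the brightest and the dimmest probe was 0.49 for the isoforms with close probes and 2.02 for the others.

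**Figure D3:**
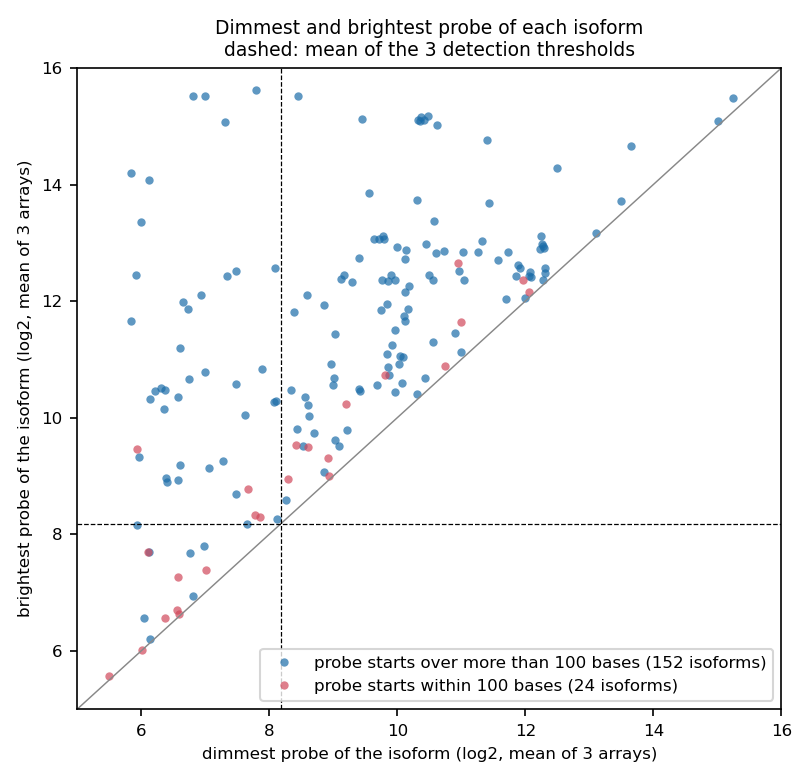
Dimmest (x axis) against brightest (y axis) probe of each isoform, in log2 intensity averaged over 3 arrays, with the line of equality and dashed lines at the mean detection threshold. Most of the 24 isoforms with probe starts within 100 bases lie near the line of equality (median difference 0.49; GRMZM2G110952_T02, at 3.53, is the farthest), and those above the horizontal and left of the vertical dashed line have a bright probe together with a dim one, as in GRMZM2G067985_T13 (15.51 and 6.80).

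Signals of probes of different isoforms were compared pair by pair, to see how far isoforms of a gene returned the same values. Of 4171 pairs of probes from different isoforms of 1 gene, 189 differed by less than 0.25 on the log2 scale in each of the 3 arrays (4.53%). Among 67607 pairs from different genes of the group, 470 did so (0.695%). When the probes of the pair started at the same position of their transcripts, 15 of 35 pairs were this close (42.9%), with a median of the largest difference of 0.32. In GRMZM2G124317, for example, isoforms T08 and T09 both had probes at positions 499 and 877. The pair at 499 was this close, and the pair at 877 was not, because of replicate 2. At 499 the values were 15.18, 15.10 and 15.06 in T08 and 15.16, 15.10 and 15.07 in T09, and at 877 they were 10.70, 10.31 and 10.26 in T08 and 10.86, 9.73 and 10.39 in T09. Equal positions and near-equal values do not show that the probes have the same sequence, and whether they do was not tested. The share of close pairs was highest in the beta-glucosidase GRMZM2G376416 (11.1%) and lowest in GRMZM2G147534 (0.455%).

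In 11 of the 16 genes (68.8%) a single array was the highest in most of the isoforms, and the same held for 76.9% of the genes with 5 to 9 isoforms, where it is easier to reach. How often this would occur without any difference between arrays was not computed, and nothing particular to these genes is read from it. Over all transcripts replicate 1 was the highest array in 33.9%, replicate 2 in 33.8% and replicate 3 in 32.3%. Replicate 2 was the highest in most isoforms of 4 genes, replicate 1 in 4 and replicate 3 in 3. The clearest cases were GRMZM2G065908, with replicate 2 highest in 10 of 12 isoforms, and GRMZM2G153648, with replicate 1 highest in 9 of 10. In GRMZM2G081943 replicate 2 was the lowest in 10 of 10. The arrays thus did not differ in 1 direction over the group. Intensities of equal rank were nearly the same in the 3 arrays, which beforehand limits a common direction over all transcripts.

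**Figure D4:**
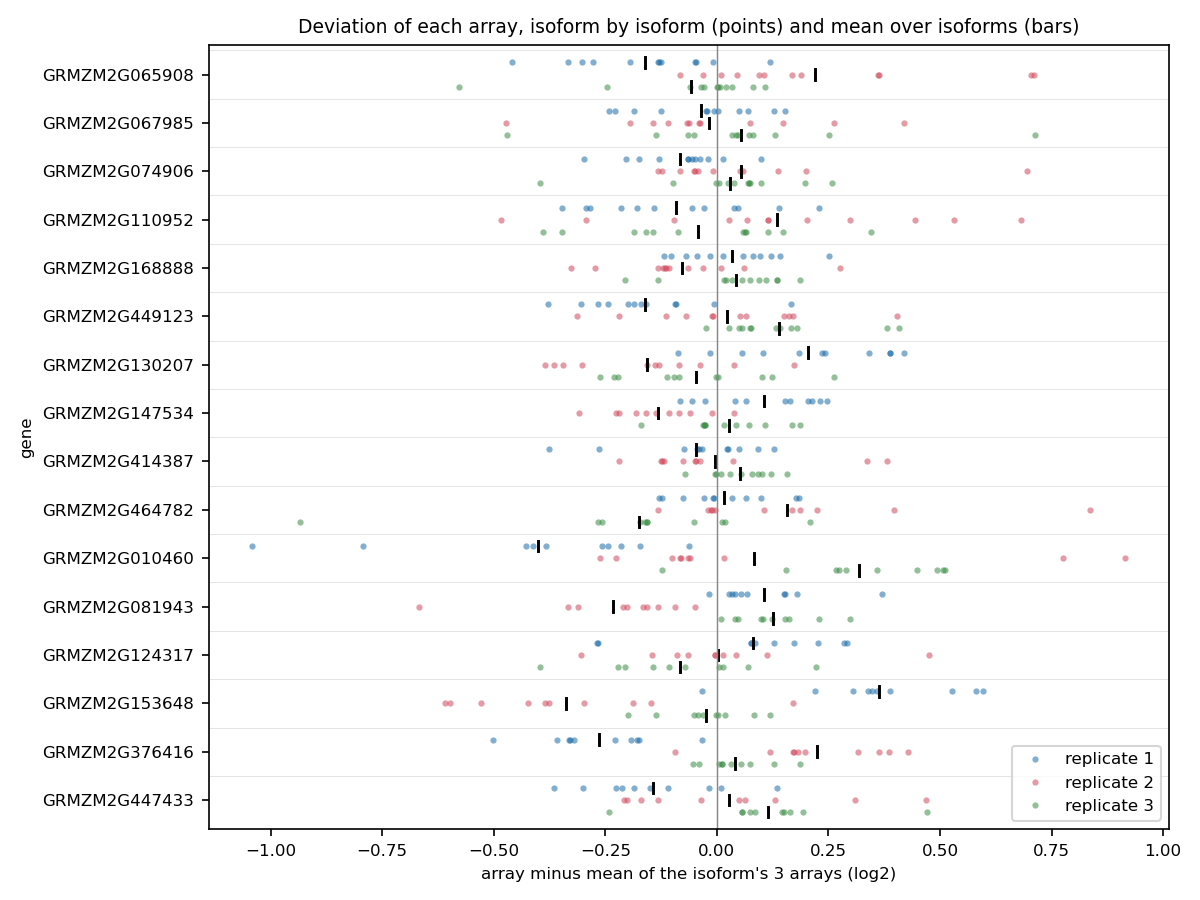
Each array minus the mean of the isoform's 3 arrays (x axis, log2) for the isoforms of each gene (y axis), with points for isoforms and black bars for the mean over them. Replicate 3 averaged 0.32 above and replicate 1 0.40 below in GRMZM2G010460 (bars at 0.32 and -0.40), whereas in GRMZM2G153648 replicate 1 stood at 0.36 and replicate 2 at -0.34.

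For comparison, the median SD of an isoform over the arrays was 0.189 in the group. In GRMZM2G376416 replicate 1 stood at -0.26 and replicate 2 at 0.22 relative to the isoforms' own means, and in GRMZM2G168888 no replicate was more than 0.08 away. Each replicate is a single array, so a shift of a gene in 1 replicate has no error of its own, and isoforms that share probes or exons repeat the same measurement.

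The 3 arrays spanned more than 1 on the log2 scale in 12 of the 176 isoforms, against 6.23% of all transcripts. In 7 isoforms (3.98%) replicate 2 exceeded the average of the other arrays by over 1, against 2.57% of all transcripts. These 7 came from 5 genes, and they were T03 and T10 of GRMZM2G010460, T10 and T11 of GRMZM2G065908, GRMZM2G074906_T10, GRMZM2G110952_T10 and GRMZM2G464782_T10. Replicate 3 did so in 1 isoform, GRMZM2G067985_T15, against 0.612%, and replicate 1 in 0 isoforms, against 0.333%. Other isoforms of these genes differed much less between the same arrays, such as GRMZM2G065908_T01 with 10.51, 10.60 and 10.56 and GRMZM2G464782_T03 with 12.44, 12.44 and 12.46. In GRMZM2G065908, GRMZM2G110952 and GRMZM2G464782 replicate 2 was also the highest array in 10 of 12, 7 of 12 and 6 of 11 isoforms. In GRMZM2G010460 and GRMZM2G074906 it was the highest in 2 of 10 and 4 of 12, and replicate 3 in 8 and 7. These counts include the isoforms picked for their high replicate 2. Without replicate 2 the arrays spanned more than 1 in 2 isoforms, without replicate 1 in 6 and without replicate 3 in 7, where fewer arrays give a smaller span by construction.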

How the data were processed

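Total RNA of Urea+NBPT roots was reverse transcribed, labelled with Cy3 and hybridized to NimbleGen maize arrays by the authors, and the intensity of each probe was extracted with NimbleScan. RMA is the tool that the labels list, without a version. The deposited intensities are linear, and although the methods call such files raw, intensities of equal rank were within 0.183% of each other across the 3 arrays, as after quantile normalization, over arrays that are not given in the sources used here. The deposited value table held the same intensities (0 probes differed).

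With Python 3.11.15 and R 4.3.3, log2 intensities were averaged per transcript over its probes. Detection was called where all 3 arrays exceeded the 95th percentile of their probes of random sequence. This percentile is of single probes, while a level averages 2 or 3. The excess over it was tested on all 59756 transcripts with limma 3.58.1 (one-sided, Benjamini-Hochberg), which treats the thresholds as known. The steps were run on simulated data, in which all probes of some transcripts were raised far above background. True signals near the threshold, and isoforms with a bright and a dim probe, were not simulated. Alternatives were the 99th percentile, 2 of 3 arrays, the median of the probes, every probe passing, normexp (offset 50) with quantile normalization and median polish, the value table, scaling to one median, other isoform minimums and leaving out each replicate.

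Members and lists were chosen with earlier results of these data known. All 16 genes are described, beyond the rule for named genes, which took those with the most isoforms, all or no isoforms detected or the largest SD, and for each gene its highest, lowest and most variable isoform. Other isoforms and the limits on probe distance and probe gap were picked after the values were seen. Function lists by words could be matched to symbols only, since the reference table holds no descriptions, and of the 8 lists 1, cytoskeleton and vesicles, held a gene of the group, Actin-7. The list of RNA processing matched 0 genes of the array.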

Additional observations from a re-analysis of the deposited data

How the results depend on the processing

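Of the 176 isoforms, 137 were detected with the median of the probes, against 61.6% of all transcripts. For the 148 isoforms with 2 probes the median equals the mean, so only the 28 with 3 probes could change. With normexp, quantile normalization and median polish 137 were detected, against 62.6% of all transcripts. When 1 replicate was left out, between 140 and 144 were detected. By construction fewer required arrays cannot lower this count, nor the share detected over all transcripts. Over all transcripts the share detected was 46.4% with the 99th percentile, 66.1% in at least 2 arrays and 42.1% when every probe had to pass, and between 62.9% and 64.4% without 1 replicate. Every isoform was detected in 1 gene with the 99th percentile, in 5 in at least 2 arrays and in 1 when every probe had to pass. No isoform was detected in 1 gene with the 99th percentile and in 1 when every probe had to pass, which was GRMZM2G147534 in both. With 8 or more isoforms per gene, which takes in more genes, 540 isoforms were detected, 531 were called by limma and 34 spanned more than 1. Every isoform was detected in 10 of these genes and none in 1. The number of isoforms under this limit is not given here, so these counts cannot be set against the shares above. With 12 or more, the numbers were 61, 61 and 5 of 72 isoforms (84.7%, 84.7% and 6.94%), with every isoform detected in 1 gene. Isoforms spanning more than 1 numbered between 2 and 7 without 1 replicate, the fewest without replicate 2, where fewer arrays give a smaller span by construction. Scaling to one median and the value table gave 139 isoforms again, a result fixed beforehand. The value table held the same intensities, and scaling moves the levels and the threshold of an array together. No paired analysis was possible because the arrays form a single group. The 3 arrays, and control probes whose match to the isoforms in composition was not examined, limit every call near the threshold.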
